A study of Mus musculus with 24 samples.

Results

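The genes of the mitochondrial respiratory chain were followed through 4 states of mouse CD4+ T cells in the presence and absence of BAF180. They were all genes whose symbol in the deposited table began with Nduf, Uqcr, Cox4, Cox5, Cox6, Cox7, Cox8 or Atp5, or was Sdha, Sdhb, Sdhc, Sdhd, Cycs or Cyc1. The rule found 75 genes with 91 probes, of 18120 symbols and 25697 probes in the table, and Sdha had no probe under that symbol. A gene was tested when at least 1 of its probes was detected (detection p of 0.02 or less) on at least 1 of the 24 arrays, and was then read from its kept probe with the highest mean. This left 69 respiratory chain genes, of 10545 genes tested. Of these, 55 were detected on all 24 arrays and 14 on some of them.

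The respiratory chain moves electrons from NADH and succinate to oxygen and uses the energy to drive protons out of the mitochondrial matrix. Complex I (NADH dehydrogenase) and complex II (succinate dehydrogenase) pass electrons to ubiquinone, complex III passes them on to cytochrome c, and complex IV (cytochrome c oxidase) delivers them to oxygen. Complex V is the ATP synthase, which makes ATP as protons flow back. Most subunits are encoded in the nucleus, and the few encoded by mitochondrial DNA are outside the rule. Naive T cells are small, quiescent cells, and T cells that are activated through their antigen receptor grow, divide and are known to build up their mitochondria.

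The 24 Illumina MouseRef-8 v2 arrays came in 8 groups of 3, labelled replicates A, B and C. Naive CD4+CD62L+ T cells were purified to 95% from spleen and lymph nodes of wild type (WT) mice or of BAF180 conditional knockout mice (BAF180-deficient) that were 4 to 6 weeks old. They were profiled at rest, and after 24 h on plates coated with anti-CD3 (1 µg/ml) and anti-CD28 (2 µg/ml). Resting Th2 cells were grown from naive cells on plates coated with the same antibodies in IL-4 (10 ng/ml) and anti-IFN-gamma (10 µg/ml), with IL-2 (100 U/ml) added later, and stimulated Th2 cells then received PMA (50 ng/ml) and ionomycin (500 ng/ml) for 1.5 h. In the BAF180-deficient mice, Cre under the control of the CD4 promoter removed a floxed exon of Pbrm1, the gene for the BAF180 subunit of the PBAF chromatin remodelling complex, so that the deletion was present during T cell development and not only in culture. The labels gave the strain as Balb/c for both genotypes, whereas the methods of the study described a mixed background. The stimulated Naive cells and both Th2 states shared the anti-CD3 and anti-CD28 plates, so time in culture and stimulation differed from the resting Naive cells together. The study describes 3 pairs of WT and BAF180-deficient mice behind the arrays, but the labels tied no array to an animal or a culture, and the p-values measure only the spread between the arrays of a group. On arrays, an equal change of all RNAs per cell and a change in cell number cannot be told apart, and all levels below are relative to the other probes of the same array.

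Pbrm1 was lower in the BAF180-deficient arrays of every state. On the log2 scale of normalized intensity, it measured 8.20, 8.72 and 8.69 on the WT arrays of resting Naive cells against 7.88, 7.28 and 7.41 on the BAF180-deficient arrays, and 9.06, 9.06 and 8.88 against 7.16, 7.23 and 7.02 in resting Th2 cells. The log2 differences were -1.01, -1.63, -1.86 and -1.42 in resting Naive, stimulated Naive, resting Th2 and stimulated Th2 cells (limma adjusted p of 0.121, 0.00746, 0.00101 and 0.0141). Whether the probe lies in the deleted exon is not known, so transcripts without that exon may still be measured. The T cell genes Cd3e and Lck were present in all groups, although Cd4 itself was dim, with group means of 4.91 to 5.65. The mean summed normalized intensity of 8 T cell genes was 16240 in resting and 7919 in stimulated Naive WT cells. In BAF180-deficient cells these sums were 16210 and 8743. The WT sum was 17750 in resting and 13170 in stimulated Th2 cells. The activation gene Il2ra was higher in the stimulated Naive and both Th2 states than at rest. The Th2 genes Gata3 and Il4 were highest in stimulated Th2 cells, while Il1rl1 and Maf stayed near background. The WT mean log2 level of Il2ra was 5.34 in resting Naive cells and 8.38 after stimulation, that of Gata3 was 7.97 in resting Naive and 9.60 in resting Th2 cells, and that of Il4 was 6.93 in resting Naive, 9.64 in stimulated Naive, 9.43 in resting Th2 and 14.02 in stimulated Th2 cells. The Th2 cytokines Il5 and Il13, which Th2 cells are known to express upon activation, were at 4.44 and 4.72 in resting Th2 cells, 5.69 and 6.14 in stimulated Naive cells and 8.40 and 8.23 in stimulated Th2 cells. The resting Naive arrays also carried markers of other cells. The summed normalized intensity of 10 myeloid genes was 3013, 2680 and 8837 on the WT arrays A, B and C of resting Naive cells and 3671, 5134 and 5608 on the BAF180-deficient ones, against 213 to 330 on the 18 arrays of the other states, where Adgre1 was the brightest in most Th2 arrays. The brightest of them was a lysozyme gene (Lyz1 by its RefSeq name), at 1411, 1548 and 5687 in resting Naive WT cells, 9 of the 10 genes were detected on each of these 6 arrays, and Itgam was not detected. The sum of 6 erythroid and platelet genes was 2516, 411 and 12860 on WT arrays A, B and C and 3857, 5515 and 6090 on the BAF180-deficient arrays, against 117 to 388 in the other states. The haemoglobin gene Hba-a1 made up 2374, 310 and 12020 of the WT sums, Hbb-b1 was not detected on WT arrays A and B, Ppbp was not detected on any of the 3, and Pf4 was detected on A alone. The sum of 8 B cell genes was 458 to 1163 over the 6 resting Naive arrays and 272 to 427 on the WT arrays of stimulated Naive cells, with Cd79b the brightest, Cr2 and Pax5 not detected on any array and Ms4a1 detected on 1 of the 6. The sum of 6 natural killer and CD8 T cell genes was 507 to 869 on the WT arrays of resting Naive cells and 280 to 389 on those of stimulated Naive cells. These values move with every comparison that has resting Naive cells on 1 side, and their part in those comparisons was not tested.

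**Figure D1:**
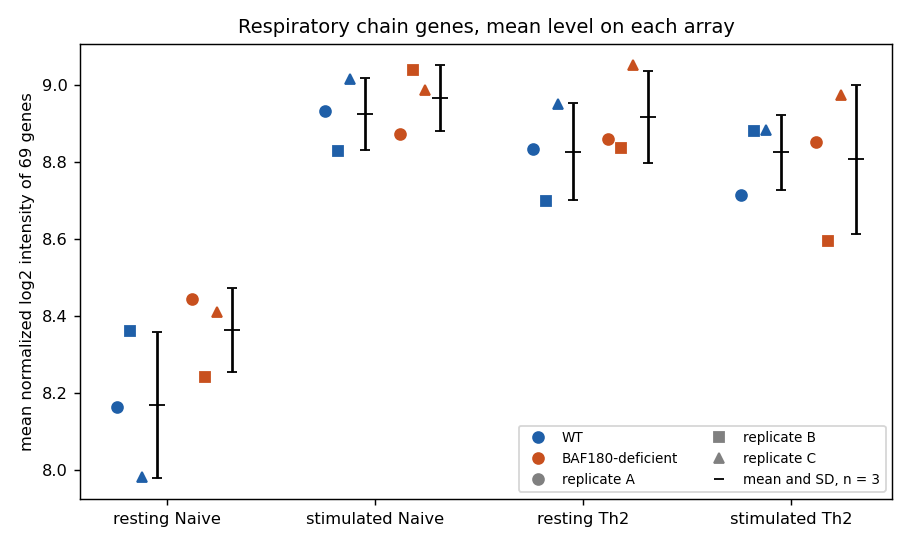
Mean normalized log2 intensity of the 69 respiratory chain genes on each array (y axis), by state (x axis) and genotype (colour), with the replicate letter as the symbol and the mean and SD of the 3 arrays in black. The 6 resting Naive arrays lie between 7.98 and 8.44, and the 18 other arrays between 8.59 and 9.05.

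By their mean level, respiratory chain genes were lower in resting Naive cells than in the other 3 states. The mean over the 69 genes was 8.17 ± 0.19 (SD, n = 3) in resting Naive WT cells, 8.92 ± 0.09 in stimulated Naive, 8.83 ± 0.13 in resting Th2 and 8.82 ± 0.10 in stimulated Th2 WT cells. The plot of mean level by array shows no overlap between resting Naive arrays and the rest in either genotype. In BAF180-deficient cells the means were 8.36 ± 0.11, 8.97 ± 0.09, 8.92 ± 0.12 and 8.81 ± 0.19 in the same order. The number of respiratory chain genes detected per array moved likewise, with 58 to 60 of 69 in resting Naive cells and 64 to 69 elsewhere. Over all probes, 8047 to 9498 were detected on the resting Naive arrays and 8935 to 10689 on the others.

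The first comparison asked what 24 h of stimulation through CD3 and CD28 did to these genes in WT Naive cells. Of the 69 genes, 51 rose and 1 fell (limma adjusted p below 0.05), and the median log2 difference was 0.80, beside -0.01 over all genes tested. Over all genes tested, 23.2% rose and 21.8% fell by the same criterion. Of the 51 genes, 8 were not detected on any resting Naive WT array and entered the test through other arrays. Of the 55 genes detected on all 24 arrays, 41 rose and 1 fell, with a median of 0.80, where 30.0% of all genes detected on all arrays rose and 28.2% fell. The balance of calls over all genes rests on the scaling, since 51.6% of all called genes were higher after quantile normalization and 82.1% when arrays were scaled by their medians alone. Scaling by medians alone gave 58 of the 69 genes higher and 0 lower, with a median of 1.65, where that of all genes was 0.25. The share of all genes tested that was called higher under this scaling is not given, and the 82.1% is a share of the called genes only. After quantile normalization the rise ran through all complexes. It was called for 5 of 6 core subunits of complex I, 18 of 23 accessory subunits of complex I, 3 of 3 subunits of complex II, 4 of 6 of complex III, 9 of 13 of complex IV and 11 of 14 of complex V. The median log2 differences of these groups were 0.70, 0.92, 0.90, 0.82, 0.98 and 0.66. The counts by complex include the 8 genes not detected at rest, Ndufb2, Ndufb4, Ndufb6, Ndufb10, Ndufab1, Sdhd, Cox7b and Atp5e. For Ndufb4 and Ndufab1 the bound on the fold was 1.02 and 0.92, which does not establish a rise. Within each letter, on 1 array against 1, the median was 0.71, 0.56 and 1.11 for A, B and C. All 9 measured myeloid genes fell in the same comparison, with a median of -2.89. Without resting Naive WT replicate C, the array with the highest myeloid and erythroid sums, 43 genes rose and the median was 0.71, and without replicate B it was 0.91.

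The ATP synthase genes held the largest rise. Atp5o, the subunit that joins the peripheral stalk to the catalytic head, measured 5.88, 5.99 and 5.67 at rest and 7.91, 7.20 and 7.63 after stimulation. All stimulated arrays lay above all resting ones, and the log2 difference was 1.73 (SE 0.20, 3.31-fold, adjusted p = 5.04e-07). Atp5g1, 1 of the genes for the c subunit of the proton-driven rotor, rose from 9.40, 9.57 and 9.07 to 11.07, 10.55 and 10.80, a log2 difference of 1.46 (SE 0.29, adjusted p = 0.000324). The other genes for subunit c, Atp5g2 and Atp5g3, rose by 0.60 and 0.54. The catalytic subunits Atp5a1 and Atp5b rose by 1.20 and 0.71, with Atp5b at 12.59, 12.65 and 12.81 at rest and 13.47, 13.39 and 13.33 after stimulation. Atp5c1, the central stalk subunit gamma, had a difference of 0.25 (adjusted p = 0.159). Atp5b and Atp5g3 turned to -0.26 and -0.36, neither called, when the Z-score normalization named in the methods replaced quantile normalization, so their direction rests on the scaling.

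In complex I the accessory subunits Ndufa5 and Ndufc1 had the largest differences among genes detected on all arrays of both states. Ndufa5, a subunit of the arm that reaches into the matrix, measured 8.60, 8.79 and 7.68 at rest and 10.35, 9.54 and 10.22 after stimulation, a log2 difference of 1.68 (SE 0.25, adjusted p = 1.25e-05). A further probe of Ndufa5 gave 1.17. Ndufc1, a small subunit of the membrane arm, rose by 1.50 (SE 0.26), and its other probe gave 1.49. Ndufb6 was not detected on any resting Naive WT array and on all 3 stimulated ones, which made it at least 1.93-fold higher (adjusted p = 0.000200). Of the core subunits of complex I, Ndufs3, Ndufv2, Ndufs7, Ndufs8 and Ndufv1 rose by 0.96, 0.86, 0.78, 0.62 and 0.54.

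Complexes II to IV followed the same direction with a few exceptions. Of complex II, Sdhb, the iron-sulfur subunit, and Sdhc, a membrane anchor, rose by 0.90 and 0.74. Sdhd, the other membrane anchor, was not detected on any resting Naive WT array and was at least 1.72-fold higher after stimulation. A probe of Sdhb that was detected on 20 of 24 arrays had a difference of -0.14, which was not called. In complex III, Uqcr (now Uqcr11), Uqcrb and the cytochrome c1 gene Cyc1 rose by 1.57, 1.31 and 1.15, the structural core subunit Uqcrc2 by 0.49, and Uqcrc1 had a difference of 0.26 (adjusted p = 0.165). Cyc1 measured 7.63, 7.57 and 7.63 at rest and 8.83, 8.66 and 8.80 after stimulation, and the tight sets of arrays did not overlap. In complex IV, Cox7c and Cox5a rose by 1.28 and 1.28, Cox7a2, which was detected on 2 of the 3 resting arrays, by 1.38, and Cox5b, Ndufa4, Cox8a and Cox6a1 rose by 1.01, 1.01, 0.83 and 0.60. Cox4i1, the common isoform of subunit 4, had a difference of 0.21 (adjusted p = 0.343). Cox7b was at least 1.40-fold higher, from no detected resting array.

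The gene that fell was Cox7a2l, which is not a subunit but encodes a factor that joins complexes III and IV into supercomplexes. It measured 9.84, 9.83 and 10.51 in resting Naive WT cells and 8.49, 9.12 and 9.01 after stimulation, without overlap, a log2 difference of -1.19 (SE 0.23, 2.28-fold lower, adjusted p = 0.000227). Cycs, the somatic cytochrome c, had a difference of -0.36 (adjusted p = 0.0859) on its brighter probe, and its other probe, detected on 11 of 24 arrays, rose by 0.75 (adjusted p = 0.0192), so the direction of Cycs differed between its probes. The brighter probe was called lower with the replicate letter as a block (adjusted p = 0.0447), without resting Naive WT replicate B and without stimulated Naive WT replicate A, in the last case together with Atp5s, and the count of genes that fell was then 2, 2 and 3. When arrays were scaled by their medians alone no gene was called lower and Cox7a2l was at -0.02, where the median of all genes was 0.25.

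**Figure D2:**
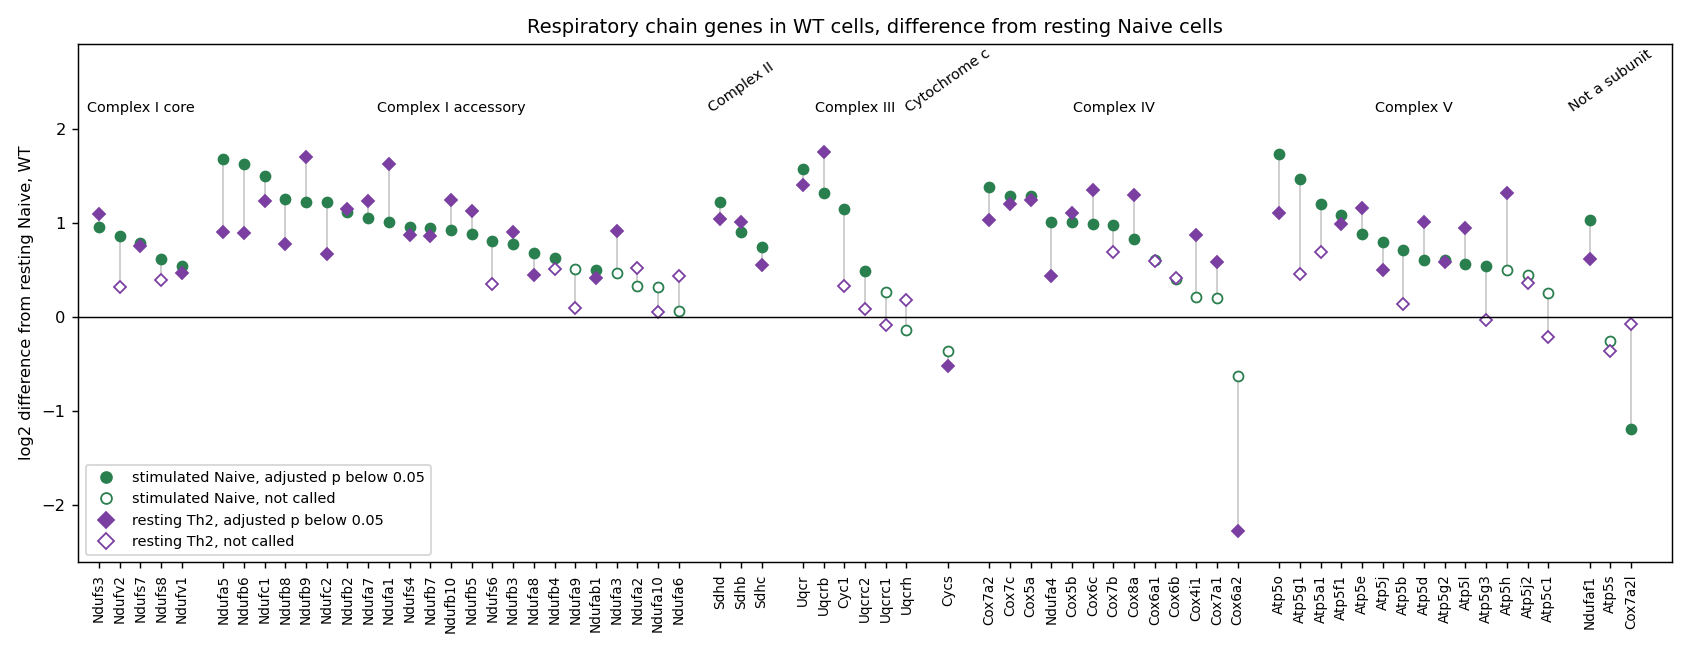
Log2 difference from resting Naive WT cells (y axis) of the respiratory chain genes, grouped by complex (x axis), for stimulated Naive cells (circles) and resting Th2 cells (diamonds) of WT mice, filled where limma's adjusted p was below 0.05. Both series share the 3 resting Naive WT arrays. Called rises lie in every complex, and the 51 and 43 rises also include the assembly factor Ndufaf1, which is not a subunit. The called differences below 0 are those of Cox7a2l, Cox6a2 and Cycs.

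Resting Th2 cells, which had been activated, polarized and expanded in culture, were compared with resting Naive cells next. In WT cells 43 of the 69 genes were higher in Th2 cells and 2 were lower, with a median log2 difference of 0.69 beside 0.00 over all genes, of which 17.9% were higher and 17.6% lower. Of the 43 genes, 7 were not detected on any resting Naive WT array. Of the 55 genes detected on all 24 arrays, 34 were higher and 0 lower, with a median of 0.67, where 22.0% of all such genes were higher and 21.2% lower. When arrays were scaled by their medians alone, the median of the 69 genes was 1.39 and that of all genes 0.33, and 83.5% of all called genes were higher, against 50.3% after quantile normalization. The groups of subunits had medians of 0.43 for core and 0.88 for accessory subunits of complex I, 1.01 for complex II, 0.26 for complex III, 0.87 for complex IV and 0.64 for complex V. The within-letter medians were 0.68, 0.29 and 1.11 for A, B and C. All 9 measured myeloid genes were lower in Th2 cells, with a median of -2.88. Without resting Naive WT replicate C 34 genes were higher and the median was 0.64.

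The largest rise was that of Uqcrb, which takes part in ubiquinone binding in complex III, from 6.98, 7.59 and 6.33 in resting Naive to 8.95, 8.31 and 8.88 in resting Th2 WT cells (log2 difference 1.75, SE 0.31, 3.37-fold, adjusted p = 0.000184). The lowest Th2 array of Uqcrb was above the highest Naive array. Uqcr of the same complex rose by 1.41. Of complex I, Ndufa1 and Ndufa7 had differences of 1.63 and 1.23. Ndufb9 had a difference of 1.70, but was detected on 1 of the 3 resting Naive WT arrays only. Ndufa1, an X-linked subunit needed for assembly of the membrane arm, measured 9.80, 10.06 and 8.13 in resting Naive and 11.19, 10.63 and 11.05 in Th2 cells, with replicate C the lowest of the resting arrays. Ndufb10 was not detected at rest and was at least 1.72-fold higher in Th2 cells, and Atp5e, a small subunit of the catalytic head of complex V, was at least 1.94-fold higher. Atp5h, a subunit of the peripheral stalk of complex V, rose by 1.32. Its difference in stimulated Naive cells was 0.50 (adjusted p = 0.188), and resting Th2 and stimulated Naive cells compared directly differed by 0.82, which was not called (adjusted p = 0.0510). Of complex IV, Cox6c, Cox8a, Cox5a, Cox7a2 and Cox4i1 rose by 1.35, 1.29, 1.25, 1.03 and 0.87. Cox7a1, a muscle isoform, was detected on all 3 Th2 WT arrays and on none of resting Naive WT cells, and was at least 1.19-fold higher.

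Of the 51 genes that rose in stimulated Naive cells, 12 were not called here, which is no test of a difference between the states. The direct comparison of resting Th2 with stimulated Naive cells called 4 of them lower, and these, Cyc1, Atp5b, Atp5g1 and Atp5g3, had differences of 0.33, 0.14, 0.46 and -0.03 from resting Naive cells. The other 8 were not called in it, among them Atp5a1 and Uqcrc2 (adjusted p of 0.364 and 0.0559), Cox6a1, Cox7b, Ndufb4, Ndufs6, Ndufs8 and Ndufv2. Cycs was lower, at 4.8, 4.85 and 4.78 against 5.52, 5.05 and 5.43 (log2 difference -0.52, SE 0.17, adjusted p = 0.0192), and its dimmer probe gave 0.34, not called. The call for Cycs was lost without replicate A or C of resting Naive WT cells or replicate C of resting Th2 WT cells, which left 1 gene lower. Cox6a2, the heart and muscle isoform of subunit 6a, measured 7.57, 7.07 and 6.43 in resting Naive and 5.46, 4.27 and 4.54 in Th2 WT cells, with 1 of the 3 Th2 arrays detected (log2 difference -2.27, SE 0.46, adjusted p = 0.000606). Its common counterpart Cox6a1 had a difference of 0.60 (adjusted p = 0.0513) on its brighter and 0.98 (adjusted p = 0.00139) on its other probe.

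Both comparisons share the 3 resting Naive WT arrays. A direct comparison of resting Th2 with stimulated Naive WT cells called 2 genes higher and 9 lower, with a median of -0.09, beside -0.01 over all genes, of which 11.4% were higher and 12.1% lower. The 2 genes that were higher in Th2 cells were Cox7a2l and Cox4i1. Cox7a2l stood at 9.99, 10.05 and 9.90 in Th2 cells, near its resting Naive level, and 1.11 (SE 0.23, adjusted p = 0.00110) above stimulated Naive cells. Cox4i1 measured 10.28, 10.36 and 10.56 in stimulated Naive and 10.97, 11.07 and 11.13 in Th2 cells (log2 difference 0.66, SE 0.17, adjusted p = 0.00698).

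The 9 genes that were lower in Th2 cells made up 13% of the 69, near the 12.1% of all genes. Those of complex V were Atp5g1 (log2 difference -1.0), Atp5o (-0.62), Atp5b (-0.58), Atp5g3 (-0.57) and Atp5c1 (-0.46). Cyc1 measured 8.83, 8.66 and 8.80 in stimulated Naive and 7.73, 8.0 and 8.11 in Th2 cells, without overlap, a difference of -0.82 (SE 0.16, adjusted p = 0.000692). Ndufa5, Ndufa4 and Cox6a2 were lower by -0.78, -0.58 and -1.64. The count of 9 became 3 without stimulated Naive WT replicate A, 3 without resting Th2 WT replicate B and 5 without stimulated Naive WT replicate C. When arrays were scaled by their medians alone, 1 of the 9 genes, Cox6a2, was still called lower and neither Cox7a2l nor Cox4i1 was called higher. The median over the 69 genes was then -0.18. It was -0.18 without stimulated Naive WT replicate B and -0.05 without resting Th2 WT replicate B after quantile normalization.

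**Figure D3:**
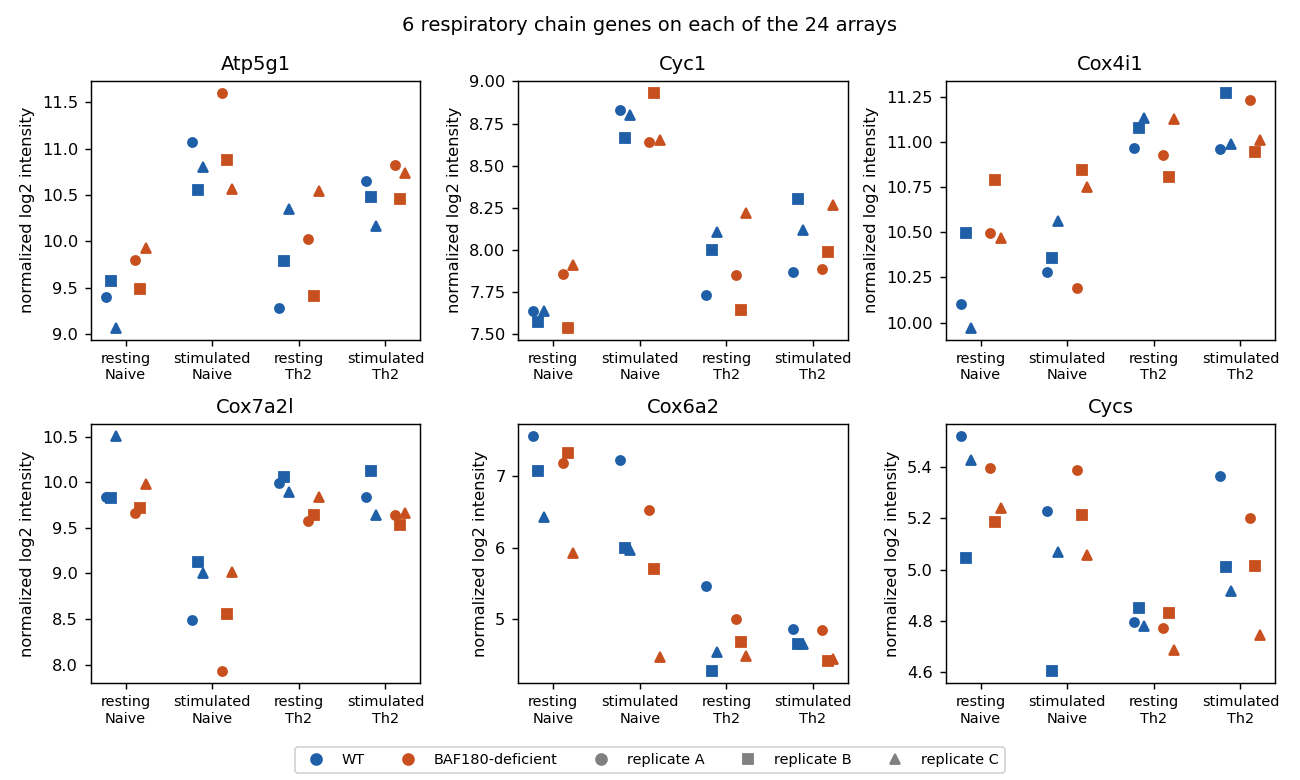
Normalized log2 intensity (y axis, its range set for each gene) of 6 genes on each of the 24 arrays by state (x axis), genotype (colour) and replicate (symbol). By group mean Atp5g1 and Cyc1 are highest in stimulated Naive cells, Cox4i1 is higher in both Th2 states than in both Naive states, Cox7a2l is lowest in stimulated Naive cells, Cox6a2 falls from Naive to Th2 cells, and the brighter Cycs probe lies between 4.61 and 5.52 throughout.

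The stimulation of Th2 cells with PMA and ionomycin lasted 1.5 h. In WT cells it raised 1 of the 69 genes and lowered 2, with a median of -0.07, beside -0.01 over all genes, of which 12.6% rose and 15.9% fell. Ndufaf1, an assembly factor of complex I, rose from 6.62, 6.98 and 7.08 to 7.76, 7.54 and 7.59, without overlap (log2 difference 0.74, SE 0.20, adjusted p = 0.00722). The complex I subunit Ndufa10 fell from 9.58, 9.99 and 9.89 to 9.10, 9.38 and 9.14 (-0.61, SE 0.13, adjusted p = 0.00138), and Atp5c1 fell from 11.02, 10.65 and 10.68 to 10.17, 10.47 and 10.24 (-0.49, SE 0.14, adjusted p = 0.0118). The counts became 3 higher and 1 lower without resting Th2 WT replicate A, 3 higher without replicate C, and 1 lower without stimulated Th2 WT replicate A, with Atp5c1 losing its call. The median was 0.02 without stimulated Th2 WT replicate A and -0.14 without resting Th2 WT replicate B. When arrays were scaled by their medians alone, the median was 0.27 and none of the 3 genes was called. Their differences were then 0.94 for Ndufaf1, -0.28 for Ndufa10 and -0.11 for Atp5c1.

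The same states were compared in BAF180-deficient cells. Stimulated against resting Naive cells had 43 genes higher and 2 lower, with a median of 0.62, where 22% of all genes rose and 21.3% fell. Resting Th2 against resting Naive cells had 37 higher and 2 lower, with a median of 0.56, where 18.2% and 17.5% of all genes did. Under scaling by array medians alone the first of these became 57 higher and 0 lower, with a median of 1.56 beside 0.27 over all genes. The second became 64 higher and 1 lower, with a median of 1.73 beside 0.58 over all genes. Of all called genes 81.8% and 89.2% were then higher instead of 50.9% in each. The share of all genes tested that was called higher under this scaling is not given. Of the 43 and 37 genes called after quantile normalization, 7 and 6 were not detected on any resting Naive BAF180-deficient array. They entered the test through other arrays. Of the 55 genes detected on all 24 arrays, 34 rose and 1 fell upon stimulation, where 28.7% and 27.4% of all such genes did. In Th2 against Naive cells 28 of the 55 were higher and 0 lower, where 22.1% and 20.3% of all such genes were. The genotypes were measured on different arrays, but the mice were paired and arrays of the same letter tended to deviate together. The values of both genotypes are therefore set side by side as a description. Upon stimulation of Naive cells 39 of the 69 genes (56.5%) were called higher in both genotypes, beside 19.3% of all genes tested. In Th2 against Naive cells 35 (50.7%) were, beside 14.0% of all genes. Some of these 39 and 35 genes were not detected on any resting Naive array of either genotype and entered through other arrays. They were Ndufb6, Sdhd, Ndufb10, Cox7b, Ndufb4 and Ndufab1 upon stimulation, and Ndufb6, Sdhd, Ndufb10 and Cox7a1 in Th2 against Naive cells. The sign was the same for 66 of 69 genes (95.7%) in each of these comparisons, beside 86.5% and 85.2% of all genes, for 57 (82.6%) in stimulated against resting Th2 cells, beside 79.7%, and for 64 (92.8%) in resting Th2 against stimulated Naive cells, beside 79.1%. Across genes, which are not independent replicates, Pearson's r between the WT and the BAF180-deficient differences was 0.89, 0.91, 0.83 and 0.91 in the same order, and over all genes tested it was 0.97, 0.95, 0.95 and 0.94. The count of 37 in Th2 against Naive cells became 21 without resting Naive BAF180-deficient replicate B and 24 without resting Th2 BAF180-deficient replicate C.

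The genes called lower were also read in BAF180-deficient cells. Cox7a2l fell by 1.29 on the log2 scale upon stimulation of BAF180-deficient Naive cells, from 9.67, 9.71 and 9.98 to 7.93, 8.55 and 9.02, and Cox6a2 fell by 1.25 (adjusted p = 0.0334). The call for Cox6a2 was lost without replicate A or B of the resting or replicate B or C of the stimulated Naive BAF180-deficient cells, which left 1 gene lower. In resting Th2 against resting Naive cells, Cox6a2 differed by -2.10 and Cycs by -0.51, and both were called. That of Cycs was lost without replicate A of the resting Naive or replicate A or C of the resting Th2 BAF180-deficient cells, which left 1. In resting Th2 against stimulated Naive cells 1 gene was higher and 5 were lower, with a median of -0.11, where 10.9% and 11% of all genes were. Cox7a2l was the gene that was higher, with 1.19, and Atp5g1, Cyc1, Ndufa4, Uqcrc1 and Ndufa10 were lower, with -1.02, -0.84, -0.64, -0.49 and -0.45. Without resting Th2 BAF180-deficient replicate B 3 genes were lower, and without replicate C 2 were higher. Under scaling by array medians alone none was called in either direction and the median was 0.063. Stimulation of BAF180-deficient Th2 cells raised 1 gene, Ndufaf1 (0.62), and lowered 4, Ndufa8, Ndufv1, Ndufa10 and Atp5c1 (-0.56, -0.49, -0.45 and -0.41), with a median of -0.12, where 11.7% of all genes rose and 15.3% fell. The number lowered was 0 without stimulated Th2 BAF180-deficient replicate B, 7 without replicate C and 2 without replicate A or any 1 of the resting Th2 arrays. Ndufaf1 lost its call without resting Th2 replicate A or B or stimulated Th2 replicate B or C, and 3 genes were higher without resting Th2 replicate C. Under scaling by array medians alone 0 were higher and 1 lower, Atp5s and none of the 4, with a median of -0.63, and 13.5% of all called genes were higher instead of 43.3%.

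**Figure D4:**
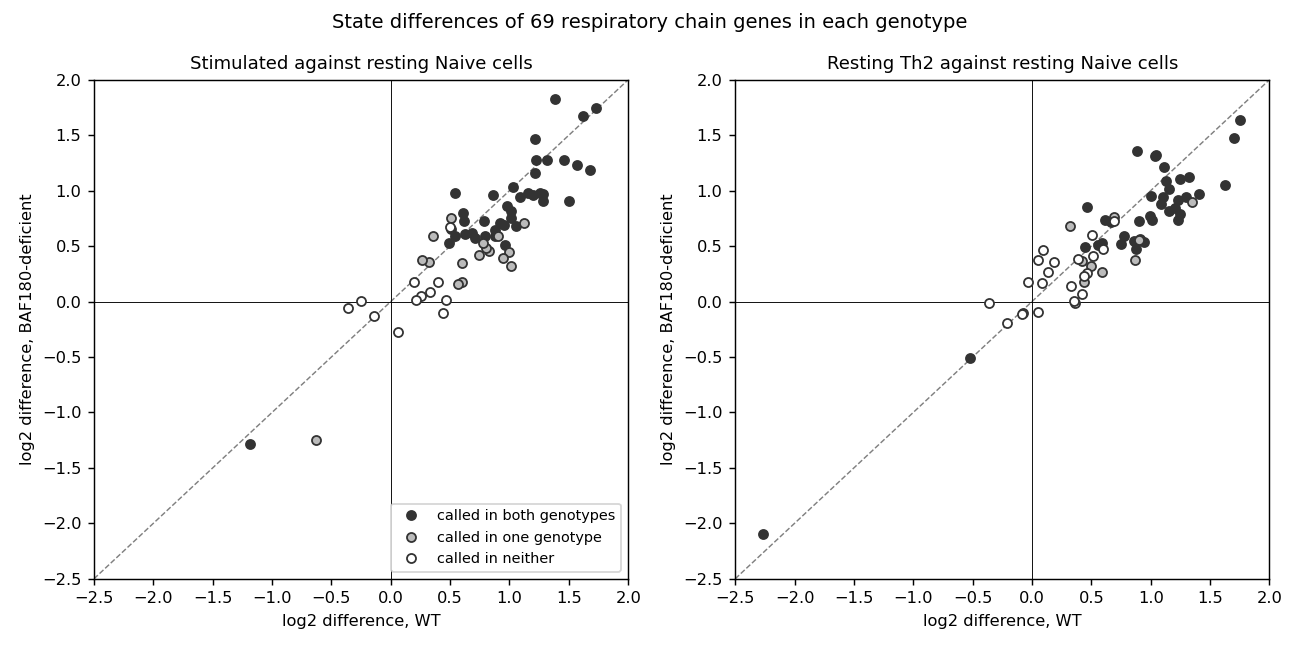
Log2 difference between states of the 69 genes in WT (x axis) and BAF180-deficient cells (y axis), for stimulated against resting Naive cells (left) and resting Th2 against resting Naive cells (right), filled black where called in both genotypes, grey where called in 1 and white where called in neither. Most genes lie above 0 on both axes, and 48 and 47 of the 69 points lie below the dashed line of equal differences. Of the 69 genes, 39 and 35 (56.5% and 50.7%) were called higher in both genotypes, where 19.3% and 14.0% of all genes were. Some of these 39 and 35 genes were not detected on any resting Naive array.

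The remaining comparisons asked whether the loss of BAF180 changed these genes within a state. The methods of the study call a gene by 4 criteria together, a Z-ratio beyond 1.5, a false discovery rate below 0.3, p below 0.05 and a mean signal above 0, and by these none of the 69 genes was called in any of the 4 states. The Z-ratio was taken here as the log2 difference over the SD of the differences of all kept probes, on quantile-normalized values and not on Z-scores. Over all genes, 0.759%, 0.114%, 0.104% and 0.0948% were called in resting Naive, stimulated Naive, resting Th2 and stimulated Th2 cells. The medians over the 69 genes were 0.18, 0.07, 0.09 and -0.02 on the log2 scale, beside 0.00, 0.01, 0.00 and 0.00 over all genes. These medians moved with single arrays and with the scaling. In resting Naive cells the median was 0.10 without WT replicate C and 0.31 without WT replicate B. In stimulated Naive cells it was 0.0005 without WT replicate B and 0.11 without WT replicate C, in resting Th2 cells 0.01 without BAF180-deficient replicate C and 0.16 without WT replicate C, and in stimulated Th2 cells -0.10 without BAF180-deficient replicate C and 0.08 without BAF180-deficient replicate B. Under scaling by array medians alone the 4 medians were 0.27, 0.23, 0.58 and -0.33. At an unadjusted limma p below 0.05, 12 genes passed in resting Naive cells, 0 in stimulated Naive, 1 in resting Th2 and 1 in stimulated Th2 cells, where 7.21%, 2.3%, 3.59% and 2.84% of all genes passed. The SE of a difference had a median of 0.21 over the 69 genes.

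The 12 genes in resting Naive cells were all higher in BAF180-deficient cells. The 3 with the largest differences were Ndufc1, Ndufa1 and Uqcr, and none was called. Ndufc1 measured 8.84, 9.59 and 8.63 on the WT arrays and 9.84, 9.17 and 10.14 on the BAF180-deficient arrays, with overlap (log2 difference 0.70, SE 0.26, adjusted p = 0.576). Ndufa1 measured 9.80, 10.06 and 8.13 against 10.09, 9.98 and 9.92 (0.67, SE 0.31), and Uqcr 8.78, 9.24 and 8.12 against 9.62, 9.19 and 9.08 (0.59, SE 0.24). In both genes WT replicate C was the lowest array. Of the 12 genes, Sdhc, Ndufb7, Ndufs4 and Atp5e had arrays that did not overlap between genotypes, and the others overlapped. Their differences were 0.51, 0.50, 0.48 and 0.465, and Atp5e was not detected on any WT array. Over the 69 genes, 10 (14.5%) had no overlap, 9 higher and 1 lower, where 8.0% of all genes had none. The median of the 69 genes was 0.30 for letter A, -0.10 for B and 0.33 for C. Without resting Naive WT replicate B, 7 genes passed the 4 criteria (Atp5j2, Cox7c, Cox8a, Ndufa1, Ndufa7, Ndufc1 and Uqcr). Without BAF180-deficient replicate B, Ndufc1 and Ndufs4 did. The share of all genes that passed in these fits is not given, so the counts cannot be set against it. Replicate B of the WT cells had the lowest sum of erythroid and platelet genes, 411, against 2516 and 12860 on the other two arrays, and the part of these cells in the difference was not tested.

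No gene was called in the other states either. In stimulated Naive cells the largest differences were those of Cox6a2 (-0.83), Atp5h (0.38) and Cox7a2l (-0.37). Cox6a2 measured 7.23, 5.99 and 5.97 in WT and 6.53, 5.71 and 4.46 in BAF180-deficient cells. In resting Th2 cells these were Ndufb6, Sdhc and Ndufa2 (0.63, 0.46 and 0.35), and in stimulated Th2 cells Sdhc, Atp5o and Ndufb6 (0.47, -0.41 and -0.27), with adjusted p-values of 1.00 throughout. Sdhc, the complex II anchor, had an unadjusted limma p of 0.0149 and 0.0137 in resting and stimulated Th2 cells. In resting Naive cells Sdhc was also higher in BAF180-deficient cells, by 0.51 (unadjusted p = 0.00846, adjusted p = 0.52). In stimulated Naive cells its difference was 0.18 (unadjusted p = 0.307). Sdhc was not called in any state. The interaction of genotype with stimulation of Naive cells, with differentiation and with stimulation of Th2 cells called none of the 69 genes at an adjusted p below 0.05, where 0.00948%, 0.00948% and 0% of all genes were called. At an unadjusted p below 0.05, 1, 0 and 1 of the 69 genes passed, where 2.27%, 2.83% and 1.79% of all genes did. The medians of the 3 interactions over the 69 genes were -0.20, -0.14 and -0.09, beside 0.00, 0.00 and 0.00 over all genes, and 48, 47 and 53 of the 69 genes were below 0. The first and second share the 6 resting Naive arrays. Without resting Naive WT replicate C the first and second of these medians were -0.07 and -0.01, and the third turned to 0.03 without stimulated Th2 BAF180-deficient replicate B and to 0.01 without resting Th2 BAF180-deficient replicate C. Without these Th2 arrays, in that order, the count of 53 genes below 0 became 28 and 34. Under scaling by array medians alone the 3 medians were -0.16, 0.22 and -0.90, where all genes were at 0.01, 0.19 and -0.46. Under Z-score normalization they were -0.17, -0.10 and -0.01, where all genes were at 0.004, -0.006 and 0.01. The largest interactions were those of Ndufa1 (-0.69), Cox6a2 (-0.62) and Ndufc1 (-0.59) for stimulation of Naive cells, Ndufa1 (-0.58), Cox4i1 (-0.50) and Ndufc1 (-0.49) for differentiation, and Ndufb6 (-0.91), Ndufb2 (-0.50) and Ndufa2 (-0.41) for stimulation of Th2 cells.

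**Figure D5:**
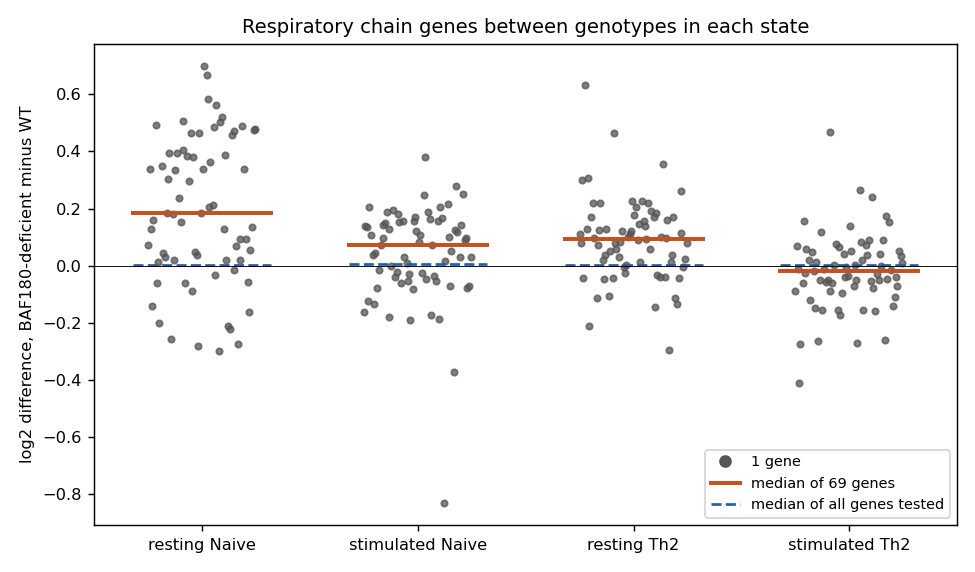
Log2 difference of BAF180-deficient minus WT cells (y axis) for each of the 69 respiratory chain genes in the 4 states (x axis), with the median of the 69 genes (solid line) and of all genes tested (dashed line). The medians of the 69 genes are 0.18, 0.07, 0.09 and -0.02, and no gene was called.

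The bases around the start sites were read for 3 motifs that are known from promoters of respiratory chain genes. RefSeq (GRCm38.p6) gave windows from 250 bases before to 50 bases after a start site for 61 of the 75 genes (66 windows), and all 75 genes were matched to a RefSeq gene. The letters searched on both strands were GCGCANGCG (nuclear respiratory factor 1, NRF1), CCGGAAG (ETS factors, to which GABP belongs) and AAGATGGC (YY1), and no overlap between motifs was removed. The NRF1 letters were in 28.8% of the windows, the ETS letters in 25.8% and the YY1 letters in 15.2%, against 6.25%, 8.86% and 2.75% of all 32851 windows in the RefSeq table. At least 1 of the 3 was in 57.6% of the windows of these genes and in 16% of all windows. Of the tested genes with a window, 26 of 44 (59.1%) that rose upon stimulation of WT Naive cells held at least 1 of the 3, and 10 of 14 (71.4%) that did not. For resting Th2 against resting Naive cells these were 23 of 38 (60.5%) and 13 of 20 (65%). The letters were thus also present in genes that were not called higher. A match is a run of letters and was not tested as a binding site. The lines that follow give the 120 bases before the start site of 6 genes chosen after their values were seen, with matched letters in capitals. Ndufa5, Atp5j and Sdhd rose upon stimulation and hold such letters, Cycs did not rise on its brighter probe and holds them too, Cox5a rose and holds none in its stretch, and Cox7a2l fell and holds none.
Ndufa5 (chr6:24527691-24527810, minus strand): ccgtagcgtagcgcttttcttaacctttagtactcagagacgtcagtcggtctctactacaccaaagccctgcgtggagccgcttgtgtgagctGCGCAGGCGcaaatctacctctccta
Atp5j (chr16:84834977-84835096, minus strand): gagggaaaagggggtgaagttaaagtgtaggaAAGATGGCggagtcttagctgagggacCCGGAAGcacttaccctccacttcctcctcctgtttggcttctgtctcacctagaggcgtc
Sdhd (chr9:50603850-50603969, minus strand): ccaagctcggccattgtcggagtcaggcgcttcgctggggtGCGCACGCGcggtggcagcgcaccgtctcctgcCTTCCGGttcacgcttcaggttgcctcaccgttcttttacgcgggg
Cycs (chr6:50566570-50566689, minus strand): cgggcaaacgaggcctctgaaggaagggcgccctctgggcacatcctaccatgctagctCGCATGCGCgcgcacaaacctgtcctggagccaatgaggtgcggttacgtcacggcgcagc
Cox5a (chr9:57521112-57521231, plus strand): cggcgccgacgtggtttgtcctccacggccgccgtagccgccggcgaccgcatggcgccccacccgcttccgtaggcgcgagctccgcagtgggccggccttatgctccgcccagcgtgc
Cox7a2l (chr17:83514334-83514453, minus strand): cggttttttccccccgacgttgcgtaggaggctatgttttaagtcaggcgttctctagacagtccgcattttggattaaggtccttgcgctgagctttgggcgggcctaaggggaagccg

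In Ndufa5 the letters are those of NRF1, in Atp5j those of YY1 followed by ETS, in Sdhd those of NRF1 followed by the ETS motif read on the other strand, and in Cycs those of NRF1 read on the other strand. Atp5j, a coupling subunit of complex V, rose by 0.80 upon stimulation of WT Naive cells.

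Other mitochondrial genes were read from lists of related functions. Of 12 measured genes of the tricarboxylic acid cycle, 8 rose and none fell upon stimulation of WT Naive cells (median 0.65), where 23.2% of all genes rose and 21.8% fell, led by Fh1, Suclg1 and Cs with 1.40, 1.06 and 1.04. In resting Th2 against resting Naive cells 2 were higher and 3 lower (median 0.34), near the 17.9% and 17.6% of all genes, and citrate synthase (Cs) differed by 1.58 and Ogdh by -1.11. Of 18 assembly factors of the chain, 11 rose and none fell upon stimulation of Naive cells (median 0.79), beside the same 23.2% and 21.8% of all genes, among them Ttc19 and Bcs1l of complex III (1.76 and 1.6) and the copper chaperone Cox17 (1.24). In Th2 against stimulated Naive cells 7 of these 18 were lower and none higher (median -0.58), where 12.1% of all genes were lower and 11.4% higher, led by Cox10, Timmdc1 and Atpaf2 with -1.03, -0.98 and -0.83. Of 9 genes of ubiquinone synthesis, 6 rose and none fell upon stimulation of Naive cells (median 0.63), beside 23.2% and 21.8% of all genes, and Pdss1, which makes the side chain, rose by 1.82, Coq5 by 1.30 and Coq7 by 1.05. Of 4 carriers and regulators of ATP exchange, 2 rose, beside 23.2% of all genes, the ADP/ATP carrier Slc25a5 (0.84) and the phosphate carrier Slc25a3 (0.71), and the median was 0.51. Atpif1, the inhibitor of ATP synthase, had a difference of 0.31, not called, in stimulated Naive cells and was higher by 1.28 in Th2 cells.

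Regulators of mitochondrial biogenesis were read last. Upon stimulation of WT Naive cells 5 of 11 rose and 2 fell (median 0.45), where 23.2% of all genes rose and 21.8% fell. Tfb1m, a mitochondrial rRNA methyltransferase, rose by 1.29, whereas the coactivator Ppargc1b and the transcription factor Nrf1 fell by 1.19 and 0.87 on the log2 scale. In Th2 against Naive cells 2 were higher and 3 lower (median -0.02), near the 17.9% and 17.6% of all genes, with Ppargc1b at -2.0, Tfb1m at 1.17 and Nrf1 at -0.85. In Th2 cells 1.5 h of PMA and ionomycin raised 3 and lowered none (median 0.14), beside 12.6% and 15.9% of all genes, namely the GABP subunits Gabpb1 (2.28) and Gabpa (1.0), and Tfb2m (0.59). None of the genes of these 5 lists was called between genotypes in any state.

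Not all respiratory chain genes could be read. Ndufs1, Uqcrfs1, Atp5k, Cox4i2, Cox8b and Cox8c were not detected on any array. Ndufs1 and Uqcrfs1 encode iron-sulfur subunits of complexes I and III and have no measured level here, and Cox4i2, Cox8b and Cox8c are tissue-restricted isoforms. Of the 69 genes, 11 had several kept probes, and in 13 of 44 pairs of gene and WT state comparison the probes differed in sign, in none with opposite calls. A further 15 genes meet the rule only by their current RefSeq symbol, of which 12 were tested. Ndufa12, Uqcr10, Atp5mpl and Ndufaf4 rose by 1.72, 1.12, 1.06 and 1.28 upon stimulation of WT Naive cells. Ndufaf4, an assembly factor of complex I, differed by -0.50 in resting Th2 against resting Naive cells, not called, and rose by 1.77 (adjusted p = 3.83e-06) upon stimulation of Th2 cells. Ndufa13 and Ndufv3 had differences of 0.38 and -0.08, not called, in stimulated Naive cells and were higher by 1.08 and 1.08 in Th2 cells. These 12 genes were in none of the counts above and were chosen for naming after their values were seen.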

How the data were processed

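Total RNA of 24 samples was hybridised to Illumina MouseRef-8 v2 arrays. The deposited table gave, for each probe and array, an intensity that the authors had read out with GenomeStudio (version 1.6.0 in the submitters' processing notes) without normalization. It also gave the detection p-value that the authors' software had computed for each probe against negative controls. No other normalized table was used, and the precision of each value was limited by the number of arrays, 3 per group.

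Intensities were background-corrected from the detection p-values and quantile-normalized by neqc in limma 3.58.1 (R 4.3.3, offset 16), and log2 values were taken. Probes detected at a p of 0.02 or less on at least 1 array were kept (14246 of 25697), and a gene was given by its kept probe with the highest mean. The 8 group means were fitted over all 24 arrays with lmFit and eBayes (16 residual degrees of freedom, 20.3 after moderation), and p-values were adjusted by Benjamini-Hochberg over all kept probes. A call between states or in an interaction needed an adjusted p below 0.05, and a call between genotypes needed the 4 criteria of the methods with p and false discovery rate from limma and a Z-ratio computed as the log2 difference over the SD of the differences of all kept probes. An exact permutation test of 3 against 3 arrays cannot go below 0.1 and was not used. The scripts were tested on simulated data.

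A gene not detected on any array of a group has only a bound there, given as "at least N-fold". The bound sets the mean of the brighter group against the mean of, per array, the higher of the lowest detected signal and the signal of the gene itself.

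The genes and lists were chosen with earlier results of these data known. Named were the 10 called genes with the largest difference whose arrays did not overlap in each direction of each WT state comparison, the 3 largest in each genotype comparison or interaction without a call, the core subunits and isoforms, genes that were not detected, and the 3 largest of each other list. Atp5j and Ndufs4 and some further genes were named after their values were seen. Old symbols were matched to RefSeq (GRCm38.p6). Replicates of the same letter tended to deviate together (pooled r of 0.30, 0.14 and 0.52 for A, B and C). Within single states r ran from 0.05 to 0.65 for A, -0.003 to 0.25 for B and 0.35 to 0.66 for C. The study took the cells from 3 mouse pairs, 1 mouse of each genotype in a pair. The labels do not say that a letter marks a pair. Alternatives were median scaling, the Z-score normalization of the methods, no detection filter, the letter as a block, a fit of only the arrays compared, the mean of all probes, and leaving out each array. A stricter threshold, unadjusted p-values and genes detected on all arrays were added after seeing the data. A few results are not reported here, and the plot by complex omits what they concern.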

Additional observations from a re-analysis of the deposited data

How the results depend on the processing

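Over 6 other ways of processing and the fits without 1 array, the named genes gave 1782 values, of which 1628 kept their side of the threshold with no called value changing sign (62 of these changed sign while called in neither), 121 lost and 31 gained a call, and 2 reversed, Atp5b at -0.26 and Atp5g3 at -0.36 in stimulated against resting Naive WT cells under Z-score normalization. Comparisons are given as WT or BAF180-deficient, in the order stimulated against resting Naive (a), resting Th2 against resting Naive (b), stimulated against resting Th2 (c) and resting Th2 against stimulated Naive (d). Median scaling without quantile normalization shifted the median of all genes by 0.25 (a) and 0.33 (b) in WT cells. In BAF180-deficient cells the shift was 0.27 (a), 0.58 (b) and -0.22 (c). The median of the respiratory chain genes was then 1.65 (a), 1.39 (b), 0.27 (c) and -0.18 (d) in WT cells. In BAF180-deficient cells it was 1.56 (a), 1.73 (b), -0.63 (c) and 0.063 (d). Of all genes called, 51.6% (a), 50.3% (b) and 44.2% (c) were higher in WT and 50.9% (a), 50.9% (b), 43.3% (c) and 49.7% (d) in BAF180-deficient cells, and under median scaling 82.1%, 83.5% and 57.8%, and 81.8%, 89.2%, 13.5% and 77.7%. It left 0 (a), 1 (b), 0 (c) and 1 (d) genes lower and 0 (c) and 0 (d) higher in WT cells, and 0 (a), 1 (b), 1 (c) and 0 (d) lower and 64 (b), 0 (c) and 0 (d) higher in BAF180-deficient cells. The genotype medians were then 0.23 in stimulated Naive, 0.58 in resting Th2 and -0.33 in stimulated Th2 cells, where all genes shifted by 0.25 in resting Th2 and -0.16 in stimulated Th2 cells. Under Z-score normalization the genotype medians were 0.16, 0.067, 0.036 and -0.0028 in resting Naive, stimulated Naive, resting Th2 and stimulated Th2 cells. It gave 2 genes lower in WT (a), 4 lower in BAF180-deficient (b), and 0 higher and 2 lower in BAF180-deficient (c). Without a detection filter 1 was lower in BAF180-deficient (a). With the replicate letter as a block 2 were lower in WT (a) and 2 higher in BAF180-deficient (d), no other count moved by over 1.5 times, and no genotype or interaction call was made. A fit of only the arrays compared gave 1 lower in WT (b) and BAF180-deficient (a), 2 higher in (c) and 3 higher in (d) of BAF180-deficient cells. The mean of all probes gave 1 lower in WT (b) and BAF180-deficient (b), and 2 higher in BAF180-deficient (c) and (d). At an adjusted p below 0.01, 1 (b), 1 (c) and 2 (d) were lower in WT, and 1 (a), 1 (b), 0 (c) and 2 (d) lower and 21 (b) and 0 (c) higher in BAF180-deficient cells. At an unadjusted p below 0.05, 12, 1 and 1 genes passed between genotypes in resting Naive, resting Th2 and stimulated Th2 cells, and 1 and 1 in the interactions with stimulation of Naive and of Th2 cells. Over genes detected on all arrays, 0 were lower in WT (b), 1 in BAF180-deficient (a) and 0 in BAF180-deficient (b). Leaving out each array gave, in WT cells, 41 to 52 higher, 1 to 3 lower and medians of 0.71 to 0.91 (a), 31 to 42, 1 to 2 and 0.64 to 0.76 (b), 1 to 3, 1 to 2 and -0.14 to 0.02 (c), and 2 to 3, 3 to 10 and -0.18 to -0.05 (d). In BAF180-deficient cells it gave 32 to 41, 1 to 2 and 0.57 to 0.71 (a), 21 to 36, 1 to 2 and 0.47 to 0.61 (b), 0 to 3, 0 to 7 and -0.23 to -0.04 (c), and 1 to 2, 3 to 6 and -0.16 to -0.04 (d). Between genotypes it gave 0 to 7 calls with medians of 0.10 to 0.31 in resting Naive cells, and 0 calls elsewhere with medians of 0.0005 to 0.11 in stimulated Naive, 0.01 to 0.16 in resting Th2 and -0.10 to 0.08 in stimulated Th2 cells, and 0 calls in the interactions. The cause of these changes was not tested. The share of all genes tested that was called without 1 array or under the 6 other ways of processing is not given. Signal limited the reading of the 14 genes that were not detected on all arrays.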
